A study of Arabidopsis thaliana with 57 samples.

Results

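The photosynthetic apparatus of a chloroplast is built from subunits encoded in the plastid and subunits encoded in the nucleus. The data described here concern 49 of the nuclear genes, out of 27655 genes in the count table, followed in induced late stomatal lineage cells of Arabidopsis. The members were taken by gene identifier and not by a cut on their values, though with earlier results of these data known. They are 4 LHCA and 13 LHCB genes for light-harvesting chlorophyll-binding proteins, 12 genes for photosystem I subunits and 9 for photosystem II subunits. A further 3 code for electron carriers (PETC, the Rieske protein of the cytochrome b6f complex, and PETE1 and PETE2, the plastocyanins). The others are 4 RBCS genes for the small subunit of Rubisco with RCA for Rubisco activase, and 3 for enzymes of the Calvin-Benson cycle (GAPA, GAPB and PRK). All 49 had enough counts to be tested in every comparison.

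Light-harvesting proteins bind chlorophyll and pass excitation energy to the reaction centres, LHCA proteins mainly around photosystem I and LHCB proteins mainly around photosystem II. Electrons leave photosystem II after water is split, pass through the cytochrome b6f complex and plastocyanin, and reach photosystem I, and the ATP and reducing power made on the way drive carbon fixation by Rubisco and the Calvin-Benson cycle. The nuclear genes of this apparatus are known to respond together to light and to the state of the chloroplast, with GLK transcription factors among their activators, and mesophyll cells express them far more strongly than epidermal cells. Guard cells differ from most other epidermal cells of Arabidopsis leaves in holding green chloroplasts, and the stomatal lineage that makes them is steered by the transcription factors SPCH, MUTE and FAMA.

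The plants were Col-0 with LhG4-GR, a synthetic transcription factor that dexamethasone (DEX) moves into the nucleus, under the FAMA promoter, and a Venus-tagged protein under the OP promoter that LhG4 activates. The tagged protein was FAMA (11 libraries), SPCH (12), FAMA or SPCH fused to the SRDX repression domain (SRDX-FAMA, 12, and SRDX-SPCH, 11), or only a nuclear localization signal (NLS, the control line, 11), so all 5 lines carried the same driver and received the same 30 µM DEX, at 10 days after germination, for 2, 3 or 4 h. True leaves were then turned into protoplasts and Venus-positive cells were sorted by fluorescence, with 3 or 4 libraries for each line and time point and 57 in all. Endogenous FAMA and SPCH stayed in every line, expression of the transgene was limited to cells in which the FAMA promoter is active, and the sources do not say whether a line is 1 transgenic event. The replicates of a group are described as biological, each a sample of sorted cells, with no word on whether plants, plates or days were separate, so p-values measure the spread between these libraries.

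Totals per library, rounded, ran between 7296000 and 60350000 counts. FAMA and SPCH counts, which include the transgene, went with the labels in all but 1 library: the library labelled SRDX-FAMA 4 h replicate 2 had 344 TMM-normalized CPM (a gene's reads relative to the whole library) of FAMA and 9662 CPM of SPCH. Its counts were also nearly those of SRDX-SPCH 2 h replicate 3. With all libraries thinned to the same total of 7296000 counts, the mean chi-square per gene between these 2 libraries was 1.26, where sampling noise alone gives 1, against 4.17 for the next closest of the 1596 pairs and 8.003 for the closest replicates of 1 line and time point. The sources do not say whether these are 1 sample under 2 labels. Both were kept under their labels in the fits described, and comparisons of SRDX-FAMA are also given without the library labelled SRDX-FAMA 4 h replicate 2, which counts the sample once. In addition, FAMA 3 h replicate 3 had 280 CPM of SPCH, against 5.61 to 25.3 CPM in the other FAMA libraries. Library names also carry a letter between a and f whose meaning the sources do not give. The count column of 1 FAMA library at 4 h shows neither letter nor replicate number and was used by its line and time point only. The only FAMA 4 h sample that no other column names is replicate 4, of letter e, but the sources do not state this match. Across the libraries, the sum of 10 guard cell marker genes lay between 585 and 2301 CPM and that of 8 mesophyll marker genes (CA1, CA2, FBA2, SBPASE, GLDP1, GOX1, DRN1 and GLP1) between 362 and 2908 CPM, and each of the 8 mesophyll markers had counts in every library. The 3 markers of myrosin cells, leaf idioblasts that also express FAMA, summed to between 12470 and 84120 CPM, almost all of it from the myrosinase genes TGG1 and TGG2. The paper counts these cells as a small part of the sorted population, and whether the TGG counts came from them was not tested. In a bulk library of this kind fewer cells of a type and less RNA per cell cannot be told apart.

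Together the 49 genes took 0.412% to 3.33% of the counts of a library. The mean over the members of log2(normalized CPM + 1), called the mean level below, was 7.37 ± 0.566 in FAMA (SD, n = 11), 7.25 ± 0.345 in SPCH (n = 12), 7.29 ± 0.574 in SRDX-FAMA (n = 12, and 7.30 ± 0.602 without the library that goes against its label), 7.12 ± 0.312 in SRDX-SPCH (n = 11) and 7.14 ± 0.851 in NLS (n = 11). The differences between lines were smaller than the spread within a line. NLS held both extremes, with a mean level of 8.85 in NLS 3 h replicate 4 and 5.83 in the lowest NLS library. Genes encoded in the plastid, which mRNA libraries primed on poly(A) capture poorly, took 0.183% to 0.747% of the counts.

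**Figure D1:**
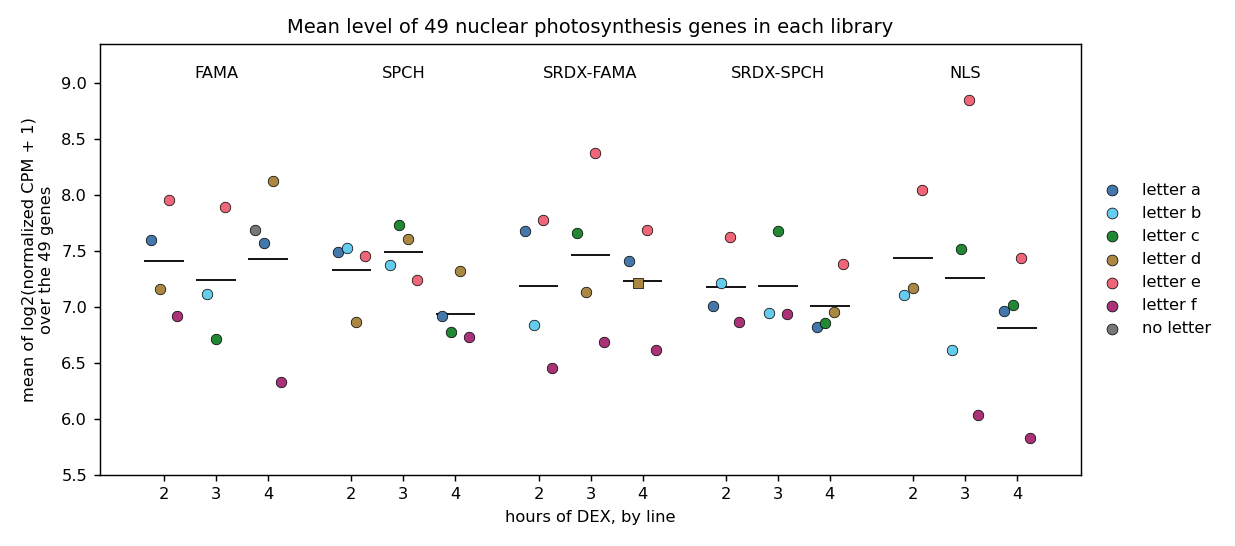
Mean of log2(normalized CPM + 1) over the 49 genes (y axis) in each of the 57 libraries, by line and hours of DEX (x axis). Points are libraries coloured by the letter in their name, short bars are group means, and the square is the library labelled SRDX-FAMA 4 h replicate 2; libraries of letter e lie between 7.24 and 8.85 and those of letter f between 5.83 and 6.94.

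By level, set per kilobase of exon so that genes can be compared, the members reached from the most abundant transcripts of these cells to rather weak ones. RBCS1A (AT1G67090) led with 1372 CPM per kb, above 99.9% of the genes with counts, and 46 of the 49 members lay above the 90th percentile. Among the antenna genes, LHCA4 (AT3G47470) led the LHCA set with 384 CPM per kb, LHCB1.3 (AT1G29930) the LHCB set with 764 CPM per kb, and LHCB1.5 (AT2G34420) followed with 692. The highest photosystem genes were PSBR (AT1G79040), for a small subunit near the oxygen-evolving complex of photosystem II, with 619 CPM per kb and PSAG (AT1G55670), for a peripheral subunit of photosystem I, with 312. PETC (AT4G03280) was the highest carrier gene (116 CPM per kb) and GAPA (AT3G26650), for a subunit of chloroplast glyceraldehyde-3-phosphate dehydrogenase, the highest of the Calvin-Benson genes (240 CPM per kb). At the other end stood PETE1 (AT1G76100, 12.5 CPM per kb), PRK for phosphoribulokinase (25.8) and PSAH1 (32.4).

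Paralogues of the same subunit stood far apart. PETE2 had 73.9 CPM per kb against 12.5 for PETE1, PSAH2 121 against 32.4 for PSAH1, and PSBO1, for the manganese-stabilizing protein of photosystem II, 250 against 40.3 for PSBO2. Likewise PSAE1 (171 CPM per kb) stood above PSAE2 (41.8), and PSAD1 (155) above PSAD2 (69.2). These values are means over libraries and depend on annotated exon length. PSAH1 has 1300 bases of exon against 702 in PSAH2, and before scaling by length the means were 42.1 CPM for PSAH1 and 85.2 CPM for PSAH2. In the other pairs named, the higher gene has the longer exons. Reads of near-identical copies may be split by the counting: of all 50-base windows in their exons, 70.5% to 89.4% occurred once in the genome for LHCA2, LHCB1.1 to LHCB1.5, LHCB2.1, LHCB2.2, RBCS1B, RBCS2B and RBCS3B, against 100% for each of the other members. Exons of PSAG, PSAH1, LHCB2.3, LHCB1.5 and others are overlapped by a gene on the opposite strand, and whether counting used strand is not given in the sources used here.

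Within a line and time point the members moved together. The standard deviation between replicates on the log2 scale had a median of 0.60 over the members, against 0.24 over 25300 genes, and it was above 1 for LHCB1.2 (1.02) and LHCB1.4 (1.08). Taking each library's deviation from its group mean, 46 of the 49 genes correlated at r over 0.8 with the mean of the other members across the 57 libraries, a description over libraries that share lines, letters and scaling. The exceptions were RBCS1B (r = 0.60), PETE1 (0.71) and GAPA (0.77). LHCB1.4 had the widest span, 37.4-fold between its highest and its lowest library, and PSAD1, for a stromal subunit of photosystem I where ferredoxin docks, the narrowest at 4.63-fold.

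RBCS1B was the member that differed between lines and its 3 paralogues were not called, so the 250 bases before the annotated starts of the 4 RBCS genes are shown here, 5′ to 3′, from RefSeq's TAIR10.1 assembly. RBCS1B, RBCS2B and RBCS3B lie side by side on chromosome 5 (chr5:15385321-15385570, chr5:15382072-15382321 and chr5:15378643-15378892 for the stretches shown) and RBCS1A on chromosome 1 (chr1:25049668-25049917), all on the minus strand. Capitals mark the G-box (CACGTG) and the I-box (GATAAG) on either strand, motifs long described in promoters of light-responsive genes.
RBCS1B: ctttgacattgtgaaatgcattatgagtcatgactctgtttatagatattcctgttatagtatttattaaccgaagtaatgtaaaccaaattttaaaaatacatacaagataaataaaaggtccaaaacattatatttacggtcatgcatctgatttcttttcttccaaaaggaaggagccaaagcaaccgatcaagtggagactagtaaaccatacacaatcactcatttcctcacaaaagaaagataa
RBCS2B: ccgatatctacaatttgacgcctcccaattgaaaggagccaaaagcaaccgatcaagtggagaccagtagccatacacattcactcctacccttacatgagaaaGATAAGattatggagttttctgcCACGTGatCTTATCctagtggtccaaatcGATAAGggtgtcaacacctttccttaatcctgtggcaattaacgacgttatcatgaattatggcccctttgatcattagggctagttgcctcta
RBCS3B: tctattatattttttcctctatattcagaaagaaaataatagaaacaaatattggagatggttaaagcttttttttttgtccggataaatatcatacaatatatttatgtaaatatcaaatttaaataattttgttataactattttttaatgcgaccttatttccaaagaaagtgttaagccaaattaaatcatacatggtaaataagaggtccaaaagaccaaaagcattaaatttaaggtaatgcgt
RBCS1A: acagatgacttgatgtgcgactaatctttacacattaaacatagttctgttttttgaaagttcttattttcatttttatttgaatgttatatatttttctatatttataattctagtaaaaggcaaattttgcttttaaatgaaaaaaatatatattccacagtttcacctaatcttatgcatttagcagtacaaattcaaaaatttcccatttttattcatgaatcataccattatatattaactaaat
RBCS2B held 1 G-box and 3 I-boxes in this window, and the windows of the other RBCS genes held neither of those letter runs. The RBCS1B window ends in a stretch that resembles the letters of RBCS2B leading into its first marked I-box. Letters beyond that end lie past the annotated start of RBCS1B and were not searched, so the windows of these genes are not aligned. Annotated exons sum to 935 bases in RBCS2B, against 1268 in RBCS1A, 1894 in RBCS1B and 1410 in RBCS3B. Letters past the starts of RBCS1A and RBCS3B were not searched either, so a box missing here may lie outside the window. Over all members, 10 of 49 windows (20.4%) had a G-box, against 6.49% of 27443 protein-coding nuclear genes, and 13 (26.5%) an I-box, against 12.3%. An E-box (CANNTG, which every G-box also is), the kind of site that bHLH factors such as SPCH and FAMA bind, was in 39 of 49 windows (79.6%), against 55.3% of all. By role, the E-box was in all 13 LHCB and all 4 LHCA windows, in 7 of 9 for photosystem II and in 6 of 12 (50%) for photosystem I. The evening element (AAATATCT) was in 0 of 49, against 4.79% of all. Annotated starts differ in quality, so a window may not begin at the start used in these cells, and a match of letters is a description, not a binding site.

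The first question was whether brief induction of FAMA, SPCH or their repressor forms changed these genes relative to NLS, in fits that carried the time point as a term. The authors proposed that NLS samples took in more weakly fluorescent cells, so that their cell composition could differ from that of SPCH and FAMA samples. They therefore turned to comparisons without NLS. The part of such a shift in the values against NLS given here was not tested. In none of the 4 lines did any of the 49 genes pass an adjusted p of 0.05 (edgeR's quasi-likelihood test, Benjamini-Hochberg over all genes tested). The tests were able to call other genes: 7.42% of 24366 genes differed for FAMA, 6.84% of 24611 for SPCH, 2.25% of 24327 for SRDX-FAMA and 2.67% of 24480 for SRDX-SPCH. At an unadjusted p under 0.05, 0 members differed in FAMA and 1 in each of the other lines, RBCS1B each time. DESeq2's Wald test called 11.9%, 12%, 6.09% and 6.18% of the genes it tested in FAMA, SPCH, SRDX-FAMA and SRDX-SPCH, and of the members 0, 0, 0 and 1, RBCS1B in SRDX-SPCH. With the letter of the library name as a block, 1 member passed in edgeR in each of SPCH, SRDX-FAMA and SRDX-SPCH and 0 in FAMA, again RBCS1B, and without the library labelled SRDX-FAMA 4 h replicate 2 RBCS1B also passed in SRDX-FAMA.

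The members' fold changes were small and lay mostly to 1 side. Their median log2 fold change was 0.12 in FAMA (45 of 49 above 0), -0.10 in SPCH (11 above 0), 0.06 in SRDX-FAMA (37 above 0) and -0.19 in SRDX-SPCH (6 above 0), beside medians of 0.04, 0.01, -0.01 and 0.01 over all genes tested. Single libraries set the sign of such small medians: without NLS 3 h replicate 4 the median was 0.16 in SPCH and 0.04 in SRDX-SPCH, with the letter as a block 0.09 and 0.04 in these lines, and without SRDX-FAMA 3 h replicate 4 it was -0.06 in SRDX-FAMA. Because the members vary together, a side shared by most of them is a single movement and not 49 separate ones. Median standard errors of 0.30, 0.24, 0.29 and 0.26 in these lines say how coarse the comparison is, and a p above the threshold does not show equal levels. The 4 comparisons share the NLS libraries, whose own spread was the widest of the lines.

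**Figure D2:**
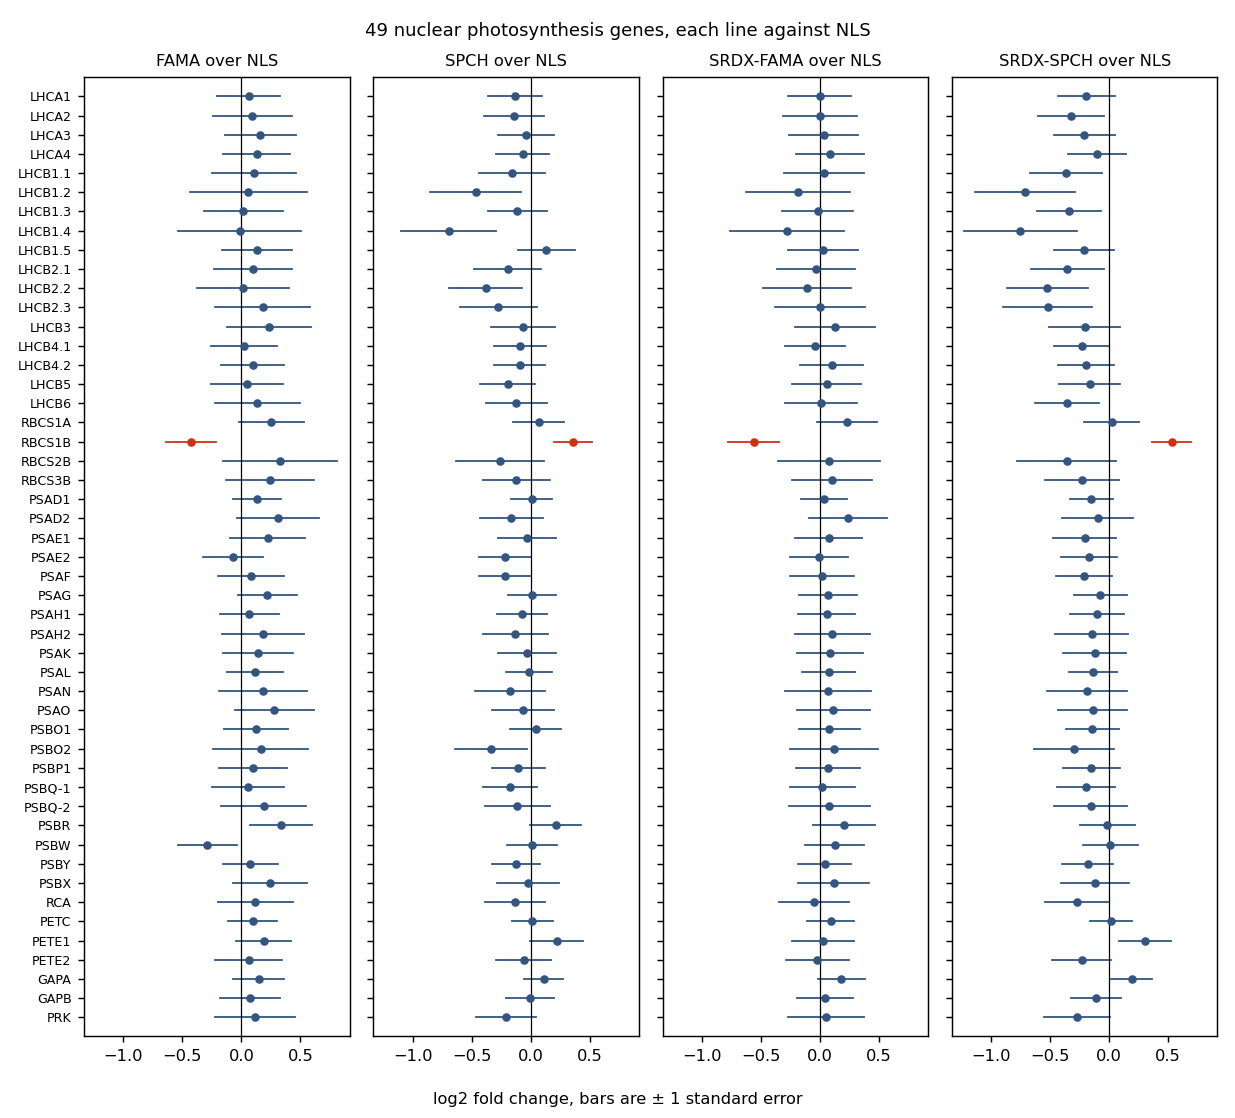
Log2 fold change of each of the 49 genes (rows) in FAMA, SPCH, SRDX-FAMA and SRDX-SPCH over NLS (panels), from edgeR with time point as a term; bars are ± 1 standard error. RBCS1B, in red, lies at -0.43, 0.36, -0.56 and 0.53 in these panels and the median of the 49 genes at 0.12, -0.10, 0.06 and -0.19.

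The most abundant member of each role shows the same overlap of lines. RBCS1A had a lowest, median and highest value of 923, 1933 and 2947 CPM in FAMA, 1019, 1809 and 2203 in SPCH, 1105, 1890 and 3477 in SRDX-FAMA, 1149, 1484 and 2222 in SRDX-SPCH, and 609, 1351 and 4227 in NLS. LHCB1.3, for a subunit of the main antenna of photosystem II, had 424, 1041 and 1925 CPM in FAMA, 549, 1029 and 1264 in SPCH, 438, 972 and 1802 in SRDX-FAMA, 516, 742 and 1231 in SRDX-SPCH, and 351, 853 and 2615 in NLS. Without the library labelled SRDX-FAMA 4 h replicate 2 the SRDX-FAMA medians were 2024 CPM for RBCS1A and 923 CPM for LHCB1.3, with the same lowest and highest values. For both genes NLS spanned the range of the other lines at both ends. LHCA4, for an antenna protein of photosystem I, had medians of 537, 482, 496, 394 and 438 CPM in FAMA, SPCH, SRDX-FAMA, SRDX-SPCH and NLS. PSAG had medians of 268, 230.0, 238, 203 and 205 CPM in the same order of lines. Neither gene separated any line from NLS. PSBR ranged from 290 to 862 CPM in FAMA, 344 to 716 in SPCH, 246 to 837 in SRDX-FAMA, 321 to 527 in SRDX-SPCH and 141 to 1093 in NLS. PETC and GAPA were the steadiest of the leading genes, with medians between 116 and 144 CPM and between 398 and 436 CPM in the 5 lines. Their log2 fold changes against NLS lay between 0.01 and 0.10 for PETC and between 0.11 and 0.19 for GAPA, each smaller than or close to its standard error.

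Medians by role lay close together. In FAMA the median log2 fold change against NLS was 0.11 for the LHCA genes, 0.10 for the LHCB genes, 0.16 for photosystem I, 0.13 for photosystem II, 0.10 for the carriers, 0.24 for Rubisco and its activase and 0.12 for the Calvin-Benson genes. In SPCH the same medians lay between -0.16 for the LHCB genes and 0.01 for the carriers.

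RBCS1B was the member that differed between lines when SPCH was compared with FAMA. Over all time points, with time as a term, RBCS1B (AT5G38430) was higher in SPCH than in FAMA and was the only member of the 49 past the threshold, where 1.57% of 24549 genes passed (edgeR). It had 75.3, 132 and 156 CPM (lowest, median and highest) in SPCH, against 41.5, 72.3 and 127 CPM in FAMA, so the lines overlapped only through the lowest SPCH and the highest FAMA libraries. The log2 fold change was 0.82 (SE 0.16, adjusted p = 0.00679 from edgeR), and DESeq2, which called 2.85% of genes, also called RBCS1B alone among the members. Without FAMA 3 h replicate 3, the library with more SPCH counts, RBCS1B had 0.72 (adjusted p = 0.0166 from edgeR). The median over the members in the same comparison was -0.19, with 45 of 49 below 0 and a second gene, PSBW, at an unadjusted p of 0.0297 (log2 fold change 0.32, adjusted p = 0.397 from edgeR).

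The other small-subunit genes lay on the opposite side of 0 and did not pass. RBCS1A had a log2 fold change of -0.16 (SE 0.18, adjusted p = 0.887 from edgeR), RBCS3B (AT5G38410) of -0.33 (SE 0.22, adjusted p = 0.701) and RBCS2B (AT5G38420) of -0.54 (SE 0.31, adjusted p = 0.607). As a share of the summed CPM of the 4 genes, RBCS1B made up 3.92% to 8.77% in SPCH (median 5.44%), against 2.15% to 4.28% in FAMA (median 2.82%). The share of RBCS1B thus overlapped little between these lines. In NLS, without an induced factor, it ran from 3.10% to 11.14% and overlapped both. The 11.14% was in NLS 4 h replicate 2, the library with the lowest mean level of the members (5.83).

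**Figure D3:**
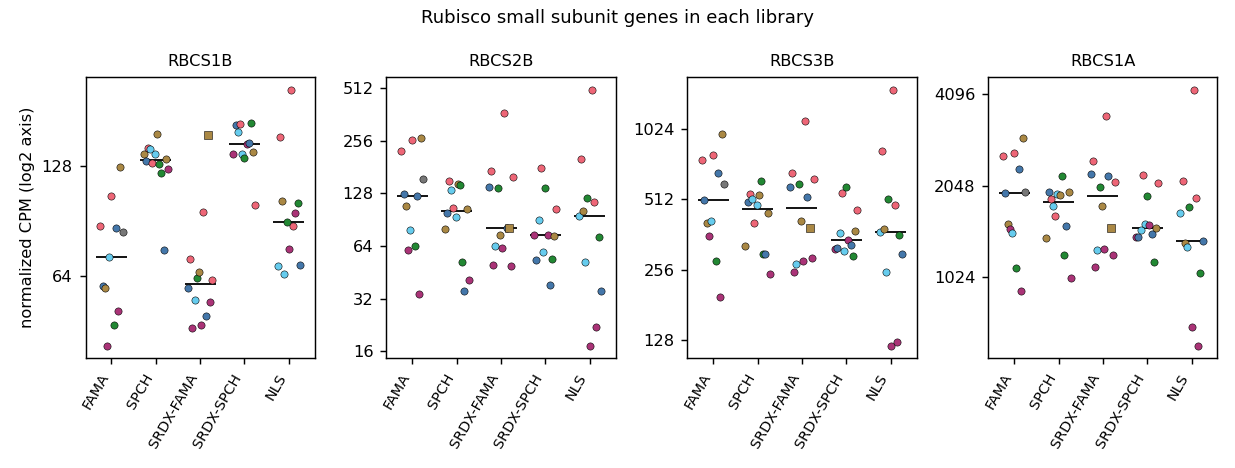
Normalized CPM (log2 axis) of RBCS1B, RBCS2B, RBCS3B and RBCS1A (panels) in each library of the 5 lines. Points are libraries, coloured by letter as in the plot of mean levels, horizontal bars are line medians, and the square is the library labelled SRDX-FAMA 4 h replicate 2; medians of RBCS1B are 72.3, 132, 61.1, 146 and 89.8 CPM in FAMA, SPCH, SRDX-FAMA, SRDX-SPCH and NLS.

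At each time point SPCH and FAMA were also fitted on their own. At 2 h RBCS1B had 137, 131, 143 and 142 CPM in SPCH, against 87.5, 60.1, 59.5 and 41.5 CPM in FAMA, with no overlap. At 3 h it had 130, 137, 156 and 129 CPM in SPCH, against 72.3, 106 and 47.2 CPM in FAMA, again apart. At 4 h it had 122, 75.3, 133 and 126 CPM in SPCH, against 86.4, 51.5, 127 and 84.7 CPM in FAMA, and the lines overlapped. The log2 fold changes were 1.16, 0.87 and 0.38 at 2, 3 and 4 h. None passed in edgeR (adjusted p of 0.369, 0.460 and 1), where 0.00881%, 0.0133% and 0.00892% of genes did, and DESeq2, which called 0.692%, 1.01% and 0.475% of genes, called RBCS1B at 2 h and at 3 h (adjusted p of 7.28e-05 and 0.0364) and no other member at any time. Whether the size of the difference changed with time was not tested.

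The same order appeared between the repressor forms, a comparison chosen after RBCS1B had been seen in SPCH and FAMA. RBCS1B had 99.8, 146 and 167 CPM (lowest, median and highest) in SRDX-SPCH, against 46.4, 61.1 and 155 CPM in SRDX-FAMA. The 155 CPM belonged to the library labelled SRDX-FAMA 4 h replicate 2, and the other 11 SRDX-FAMA libraries reached 95.8 CPM, below every SRDX-SPCH library. The log2 fold change was 1.08 (SE 0.17, adjusted p = 0.000909 from edgeR), and 1.26 without that library (adjusted p = 3.29e-07). RBCS1B was again the only member called, with 2.99% of 24482 genes called by edgeR (5.23% without that library) and 6.59% by DESeq2, which also called RBCS1B alone. The median over the members was -0.25, with 47 of 49 below 0. Of the RBCS sum, RBCS1B made up 3.62% to 10.05% in SRDX-SPCH, against 1.75% to 7.37% in SRDX-FAMA, where 7.37% is the library that goes against its label and the next highest share is 3.41%.

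NLS lay between these pairs. RBCS1B had 64.8, 89.8 and 205 CPM (lowest, median and highest) in NLS. Its log2 fold change against NLS was -0.43 in FAMA (SE 0.21, adjusted p = 0.293), 0.36 in SPCH (SE 0.16, adjusted p = 0.210), -0.56 in SRDX-FAMA (SE 0.22, adjusted p = 0.209), and 0.53 in SRDX-SPCH (SE 0.16, adjusted p = 0.0974), all from edgeR. With the letter as a block these values were -0.45 in FAMA (adjusted p = 0.119), 0.46 in SPCH (adjusted p = 0.0324), -0.59 in SRDX-FAMA (adjusted p = 0.0347) and 0.63 for SRDX-SPCH (adjusted p = 0.0212, edgeR), so that all but FAMA passed. Without the library labelled SRDX-FAMA 4 h replicate 2 the value in SRDX-FAMA was -0.74 (adjusted p = 0.0176), and without SRDX-SPCH 2 h replicate 3 that in SRDX-SPCH was 0.53 (adjusted p = 0.132, edgeR). The highest NLS library, NLS 3 h replicate 4, was also the one with the highest mean level of the members, and without it RBCS1B passed for SPCH (0.51, adjusted p = 0.0117) and for SRDX-SPCH (0.68, adjusted p = 0.00247, edgeR).

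The sum of the myrosin cell markers took the same side as RBCS1B in some comparisons and the other side elsewhere. The summed CPM of TGG1, TGG2 and MVP1 averaged 42130 in FAMA, 67570 in SPCH, 24120 in SRDX-FAMA (22130 without the library that goes against its label), 47190 in SRDX-SPCH and 32920 in NLS. Like RBCS1B, the sum was higher in SPCH than in FAMA and higher in SRDX-SPCH than in SRDX-FAMA. FAMA had a higher sum than NLS but lower RBCS1B (log2 fold change -0.43). SPCH had a higher sum than SRDX-SPCH but lower RBCS1B (-0.16). RBCS1B did not pass in either of these. Of the 3 markers, 2 were called higher in SPCH than in FAMA and 2 in SRDX-SPCH than in SRDX-FAMA (edgeR). In SPCH against FAMA the 2 were TGG1 and TGG2, while MVP1 had a log2 fold change of -0.02 (adjusted p = 0.985, edgeR). Against NLS, MVP1 had -0.14 in SPCH and -0.26 in SRDX-SPCH, where TGG2 had 2.08 and 1.62. The sum thus follows the TGG genes, and MVP1 did not share their rise. TGG2 had a median of 9662 CPM in SPCH, against 2777 CPM in FAMA, and of 7536 CPM in SRDX-SPCH, against 628 CPM in SRDX-FAMA. The range of the summed level was 45870 to 84120 CPM in SPCH, against 26030 to 67380 CPM in FAMA. Whether the TGG counts came from myrosin cells was not tested, nor was the part of such cells in the RBCS1B difference. Of 8 mesophyll markers, 0 were called in either comparison, with median log2 fold changes of -0.36 in SPCH against FAMA and -0.34 in SRDX-SPCH against SRDX-FAMA.

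Each activator was also set against its own repressor form. In FAMA against SRDX-FAMA, where 13.1% of 24396 genes passed in edgeR and 18.9% in DESeq2, 0 members passed with either tool and 1 had an unadjusted p under 0.05. It was PSBW (AT2G30570), for a small subunit of photosystem II, with a median of 162 CPM in FAMA and 221 CPM in SRDX-FAMA and a log2 fold change of -0.44 (SE 0.18, adjusted p = 0.119 from edgeR). In SPCH against SRDX-SPCH, where 11.6% of 24640 genes passed in edgeR and 19.1% in DESeq2, 0 members passed with either tool and 2 had an unadjusted p under 0.05, LHCB1.5 (log2 fold change 0.34, adjusted p = 0.120 from edgeR) and PSBR (0.23, adjusted p = 0.164). The members' medians were 0.05 and 0.10 in these comparisons. Without the library labelled SRDX-FAMA 4 h replicate 2, PSBW had -0.45 (adjusted p = 0.128), the median in FAMA against SRDX-FAMA was 0.03 and 0 members passed. With the letter as a block PSBW passed there (-0.41, adjusted p = 0.0112, edgeR). RBCS1B had log2 fold changes of 0.10 in FAMA against SRDX-FAMA (adjusted p = 0.817, and 0.26 with adjusted p = 0.377 without that library) and -0.16 in SPCH against SRDX-SPCH (adjusted p = 0.266, edgeR). Outside the 49 members, CP12-3, for a regulator of the Calvin-Benson cycle, was called lower in both comparisons (-0.73, adjusted p = 0.00169, in FAMA against SRDX-FAMA and -0.41, adjusted p = 0.0281, in SPCH against SRDX-SPCH, edgeR).

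Changes between 2 h and 4 h of DEX were tested within each line. Of the 49 genes, 0 passed in any line with edgeR, which called 0% of genes in FAMA, SPCH, SRDX-FAMA and NLS and 0.0042% in SRDX-SPCH, and 0 with DESeq2, which called 6.26% in FAMA, 1.08% in SPCH, 0% in SRDX-FAMA, 0.603% in SRDX-SPCH and 0.0334% in NLS. At an unadjusted p under 0.05 the members numbered 0 in FAMA, 17 in SPCH, 0 in SRDX-FAMA, 1 in SRDX-SPCH and 0 in NLS. Over the members the median log2 change at 4 h was 0.09 in FAMA, -0.42 in SPCH, 0.00 in SRDX-FAMA, -0.16 in SRDX-SPCH and -0.58 in NLS. All 49 genes were below 0 in SPCH and in NLS. Without the library labelled SRDX-FAMA 4 h replicate 2 the median in SRDX-FAMA was 0.04, and without SRDX-SPCH 2 h replicate 3 that in SRDX-SPCH was -0.16, with 0 members passing in either.

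The 17 genes in SPCH were all lower at 4 h, where 3.62% of all genes were lower at that unadjusted p. PSBO2 (AT3G50820) had the smallest p, with 33.2, 57.3, 67.5 and 59.1 CPM at 2 h, 44.9, 41.4, 58.4 and 68.2 CPM at 3 h and 28.0, 20.7, 41.8 and 25.6 CPM at 4 h. LHCB2.2 (AT2G05070), another gene of the main photosystem II antenna, had 31.1, 53.2, 52.2 and 61.1 CPM at 2 h, 38.1, 41.6, 53.4 and 55.3 CPM at 3 h and 24.5, 31.6, 36.8 and 24.3 CPM at 4 h. In both genes the values of 2 h and 4 h overlapped through a single library at 2 h. Their log2 changes were -0.91 (adjusted p = 0.372) and -0.76 (adjusted p = 0.382, edgeR). The letters were not the same at these times: the 2 h libraries of SPCH carry a, b, d and e and the 4 h libraries a, c, d and f. With the letter as a block 3 of the 49 genes, in place of 17, had an unadjusted p under 0.05, and the median change was -0.36, while the replicate number as a block gave 26. The letter block raised the count elsewhere: in SRDX-SPCH at 4 h against 2 h it gave 24 lower members in place of 1, with a median of -0.41 in place of -0.16, and in SPCH against FAMA at 2 h it gave 17 lower members in place of 0. These counts at an unadjusted p thus depended on the block in both directions. Shares of all genes at that p are given, here and below, only for fits without a block. They were 2.89% lower in SRDX-SPCH at 4 h against 2 h and 3.46% lower in SPCH against FAMA at 2 h. Whether a block moved the members more than other genes was therefore not tested.

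The change over time in an induced line was also set against that in NLS. From 2 h to 4 h the members' median difference of log2 changes was 0.71 for FAMA, with 49 of 49 above 0, and 0.18 for SPCH, with 46 above 0. None of the members passed, with 0 at an unadjusted p under 0.05 in edgeR and 0 adjusted in DESeq2, and both tools called 0% of all genes in both interactions. The median standard errors of the members were 0.72 and 0.61. A difference of the size seen was therefore not detectable with this spread. Both interactions use the same NLS libraries, where the letters also differ between times (b, d and e at 2 h, and a, c, e and f at 4 h). Between SPCH and FAMA at 4 h, 10 members were lower in SPCH at an unadjusted p under 0.05, where 2.13% of all genes were, with a median of -0.59. With the letter as a block there were 2 (median -0.318), and with the replicate number as a block 3 (median -0.315). Both blocks also leave out the FAMA 4 h library without letter or number. The effect of a block and that of leaving out this library cannot be told apart here.

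Larger differences in the members went with the letter in the library name. This comparison was chosen after the levels of the libraries had been seen, and it used the 56 libraries whose count column shows a letter, with line and time point as a term. Over the 6 letters together all 49 genes differed (edgeR, highest adjusted p = 0.0121), where 42.5% of 25286 genes did. Leaving out the library labelled SRDX-FAMA 4 h replicate 2 again gave 49.

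Libraries of letter e were highest and libraries of letter f lowest. The mean level of the members was 7.81 ± 0.457 in e (SD, n = 12), 6.54 ± 0.379 in f (n = 10), 7.27 ± 0.339 in a (n = 9), 7.09 ± 0.291 in b (n = 8), 7.24 ± 0.443 in c (n = 8) and 7.28 ± 0.38 in d (n = 9). Without the library labelled SRDX-FAMA 4 h replicate 2 letter d had 7.29 ± 0.405 (n = 8). Letters a to d did not differ beyond their spread, while every e library lay above every f library. As a share of all counts the members took 1.85% ± 0.649 in e and 0.735% ± 0.201 in f. The order held within each line: the mean level in e against f was 7.92 against 6.62 in FAMA, 7.35 against 6.73 (1 library) in SPCH, 7.94 against 6.58 in SRDX-FAMA, 7.51 against 6.90 in SRDX-SPCH and 8.11 against 5.93 in NLS. Total counts did not differ in that way, with medians of 33350000 in e and 31200000 in f.

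Since e and f were picked as the highest and the lowest letters, their folds are a description. All 49 genes were higher in e, where 14.1% of all genes were called higher in e than in f, and the log2 fold changes lay between 0.61 for RBCS1B and 2.46 for LHCB1.4, with a median of 1.35. LHCB1.4 (AT2G34430) had 60.2, 116 and 319 CPM (lowest, median and highest) in e, against 8.53, 27.3 and 40.0 CPM in f. LHCB1.2 (AT1G29910), its paralogue on chromosome 1, had 244, 512 and 1127 CPM in e, against 50.1, 122 and 165 CPM in f. In both antenna genes the letters did not overlap. RBCS2B had 105, 176 and 501 CPM in e, against 17.2, 49.6 and 74.3 CPM in f, a log2 fold change of 2.17. RBCS1B, next to it on the chromosome, had 62.7, 103 and 205 CPM in e, against 41.5, 65.1 and 146 CPM in f. The RBCS genes thus ran in the order RBCS2B (2.17), RBCS3B (1.58), RBCS1A (1.22) and RBCS1B (0.61), and of the 4 RBCS1B alone overlapped between the letters. The ranges pool lines, between which RBCS1B also differed, so its overlap does not measure the letter alone.

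**Figure D4:**
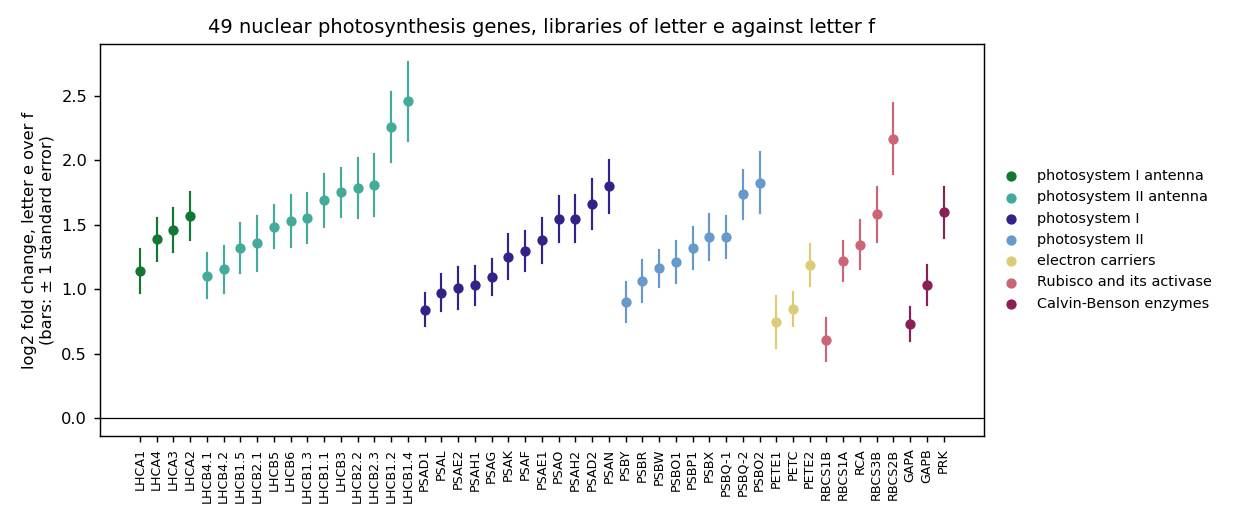
Log2 fold change of libraries of letter e over letter f for each of the 49 genes, ordered by size and coloured by role, from edgeR with line and time point as a term; bars are ± 1 standard error. The genes run from 0.61 (RBCS1B) to 2.46 (LHCB1.4), and no bar reaches 0.

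Roles followed the same direction at different sizes. The median log2 fold change of e over f was 1.55 for LHCB, 1.42 for LHCA, 1.34 for Rubisco and its activase, 1.32 for photosystem II, 1.28 for photosystem I, 1.03 for the Calvin-Benson genes and 0.84 for the carriers. Within paralogue pairs the gene with the lower level per kb had the larger log2 fold change in some and the smaller one in others. It was larger for PSBO2 (1.83) than for PSBO1 (1.21), for PSAD2 (1.66) than for PSAD1 (0.84) and for PSBQ-2 (1.73) than for PSBQ-1 (1.404), which code for a subunit of the oxygen-evolving complex. The opposite held for PETE1 (0.74) and PETE2 (1.19), for PSAE2 (1.01) and PSAE1 (1.38) and for PSAH1 (1.03) and PSAH2 (1.55).

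Other genes of photosynthesis, from lists that hold no member, were compared in the same fits. Against NLS few of them passed. Of 26 other light-reaction genes, 0 passed in FAMA and 1, higher, in each of the other lines: PGRL1B, which takes part in cyclic electron flow, in SPCH (log2 fold change 0.36, adjusted p = 0.0325), and ELIP2, an early light-induced protein gene, for SRDX-FAMA (1.18, adjusted p = 0.00187) and for SRDX-SPCH (1.05, adjusted p = 0.00815, edgeR). Of 15 other Calvin-Benson genes, 1 passed, CP12-3 in SPCH, with 6.85, 10.6 and 12.8 CPM (lowest, median and highest) in SPCH, against 10.6, 16.7 and 20.2 CPM in NLS, a log2 fold change of -0.72 (adjusted p = 0.000441, edgeR). Of 18 genes of chlorophyll synthesis and 11 tested of photorespiration, 0 passed in any line.

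Among 14 regulators, SIG5, a plastid sigma factor gene, was higher in FAMA (0.58, adjusted p = 0.0339) and in SPCH (0.59, adjusted p = 0.00374, edgeR), with medians of 29.1 and 33.2 CPM in these lines, against 19.9 CPM in NLS. The GLK genes, which encode activators of many members, did not pass in any line against NLS. GLK1 had medians of 48.5, 48.8, 49.6, 48.9 and 42.9 CPM in FAMA, SPCH, SRDX-FAMA, SRDX-SPCH and NLS. GLK2 had medians of 15.8, 14.7, 13.5, 11.3 and 12.7 CPM in the same order. The GLK levels of the lines overlapped throughout. Of 11 clock genes, PRR9 was higher in FAMA (0.93, adjusted p = 0.00921) and, with CCA1 and PRR7, in SPCH (0.75, adjusted p = 0.0195, for PRR9; edgeR).

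Between letters these lists moved more, in a fit that called 3563 of 25286 genes higher in e than in f and 2193 lower. In e against f, a description as before, 17 of 26 other light-reaction genes were called higher and 2 lower, ELIP1 (-0.62) and VDE1 (-0.35), 13 of 15 other Calvin-Benson genes higher and 0 lower, 14 of 18 for chlorophyll synthesis higher and 0 lower, and 10 of 11 for photorespiration higher and 0 lower. The list medians were 0.62, 0.80, 0.86 and 1.02. Of the regulators, 7 of 14 were called higher and 1 lower. The clock genes went the other way, with 0 of 11 called higher, 4 lower and a median of -0.34, and of 6 genes of rapid wound and touch responses 2 were called higher and 1 lower (median 0.05). PIF4, a phytochrome-interacting factor, had 20.4, 38.7 and 65.2 CPM (lowest, median and highest) in e, against 5.46, 9.29 and 12.1 CPM in f. GLK2 had 11.4, 15.2 and 27.9 CPM in e, against 6.64, 10.8 and 15.8 CPM in f (log2 fold change 0.76). GLK1 showed no such shift, with 32.2, 39.4 and 63.1 CPM in e and 34.7, 44.8 and 57.6 CPM in f (0.01).

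Markers of other cell types moved with the letters too. All 8 mesophyll markers were called higher in e than in f, with a median log2 fold change of 1.80, and all 8 differed over the 6 letters. Their summed level was 965 to 2908 CPM in e, against 362 to 752 CPM in f, without overlap. Of these 8 genes, 4 are also in the Calvin-Benson or photorespiration lists, while DRN1 and GLP1 are in neither and had log2 fold changes of 1.91 and 1.90. Of 5 vasculature markers, 4 were called higher in e, among them SUC2, the sucrose transporter of companion cells (1.85), with a summed level of 28.5 to 185 CPM in e, against 18.0 to 47.8 CPM in f. Of 10 guard cell markers 0 were called higher and 4 lower (KAT2, SLAC1, HIC and HT1), and of 8 meristemoid and guard mother cell markers 0 higher and 4 lower. Of all 25286 genes tested, 2193 were called lower in e. Of 6 epidermis markers, 0 were called in e against f. The summed guard cell level was 585 to 1627 CPM in e, against 813 to 2171 CPM in f, and overlapped. These ranges pool the lines, and both lowest values were in SRDX-FAMA libraries. Within lines the order was mixed. NLS had 1626, 1623 and 1217 CPM in e, against 1469 and 1255 CPM in f, while SRDX-SPCH had 1329 and 1408 CPM in e, against 1563 and 1513 CPM in f. The part of other cells in the difference between letters was not tested, nor what the letter stands for.

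**Figure D5:**
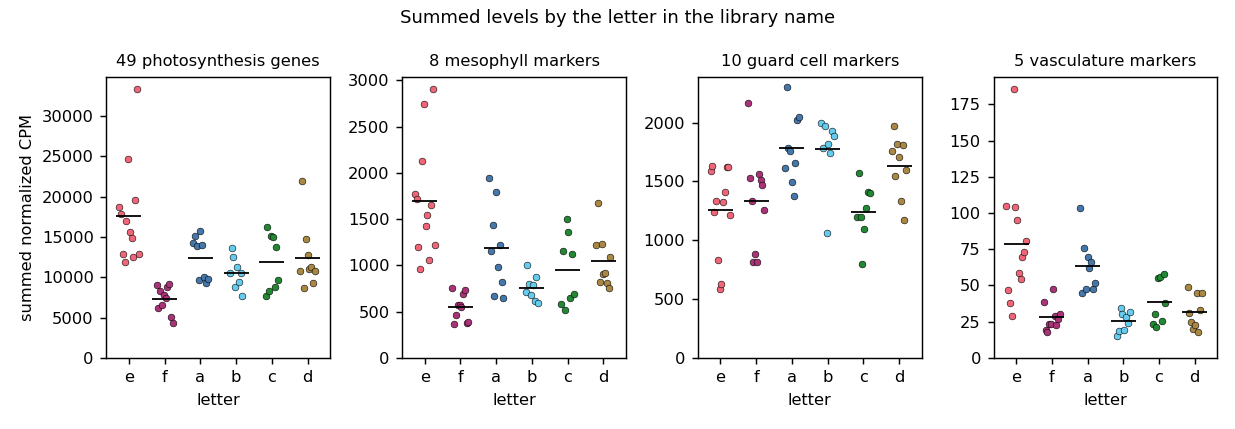
Summed normalized CPM of gene sets (panels, each axis from 0) in the libraries of each letter, with e and f at the left. Points are libraries and horizontal bars are means; the mesophyll marker sum averages 1694 CPM in e and 545 CPM in f, while the guard cell marker sum averages 1253 CPM in e and 1334 CPM in f.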

How the data were processed

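Single-end 50-base reads were mapped by the authors to TAIR10 (STAR) and assigned to genes (HTSeq), and they deposited raw counts of 27655 genes in 57 libraries, without normalization (versions not given in the sources used here). SMART-Seq v4 amplification precedes sequencing, so counts are not independent molecules. All columns were used (0 left out). The 1 FAMA column without number or letter entered every fit except those with a block.

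Genes were kept by edgeR's filterByExpr (minimum count 10, R 4.3.3, edgeR 4.0.16), scaled by TMM and tested by quasi-likelihood, with p-values adjusted after Benjamini-Hochberg over all genes of a fit and a threshold of 0.05. Levels are log2(CPM + 1). Comparisons were each line with NLS, FAMA and SPCH with each other and with their SRDX forms, 4 h with 2 h, and interactions. The comparisons of SRDX-SPCH with SRDX-FAMA and of letters, leaving out the doubtful library, and the search for near-identical libraries (genes with at least 20 counts in a pair), were added after seeing the data. Alternatives were DESeq2 1.42.0 (its size factors also in edgeR), scaling without the members, other filters, blocks and each library left out. Members and lists were chosen with earlier results of these data known. Genes given in full are the most abundant per role, those past the threshold and their paralogues. The fits were tested on simulated data.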

Additional observations from a re-analysis of the deposited data

Results flagged for a closer look

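In groups of 4 libraries, 108 combinations of group and measure were looked at for a library far from the other 3, and 3 were found, where chance flags about 1 in 20. The mean log2 level of the 49 genes was 6.86 in SPCH 2 h replicate 1, against 7.45 to 7.52 in the other libraries of that group. RBCS1B had 75.3 CPM in SPCH 4 h replicate 2, against 122 to 133 CPM in the others. RBCS1A had 2220 CPM in SRDX-SPCH 2 h replicate 4, against 1380 to 1460 CPM in the others.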

How the results depend on the processing

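The members' median log2 fold change moved by less than the 0.590 SD between replicates in all 137 alternatives and all 307 fits without a library. That SD was larger than most of the medians themselves, so staying within it does not show a stable median. The sign of the median still changed in 5 of these alternatives and 25 of these fits, over 10 comparisons, since most medians were near 0. It did not change in FAMA against NLS, SPCH against FAMA over all times or at 4 h, SRDX-SPCH against SRDX-FAMA or letter e against f. The number of members called was the same in 130 alternatives and in 303 of the fits without a library. It became 1 in place of 0, RBCS1B each time, with DESeq2 in SRDX-SPCH against NLS (log2 fold change 0.53, adjusted p = 0.0318) and in SPCH against FAMA at 2 h (1.16) and 3 h (0.87), and with the letter as a block in SPCH (0.46, adjusted p = 0.0324), SRDX-FAMA (-0.59, adjusted p = 0.0347) and SRDX-SPCH (0.63, adjusted p = 0.0212) against NLS; the letter block also called 1, PSBW, in FAMA against SRDX-FAMA (-0.41, adjusted p = 0.0112, edgeR). The cause was not tested. With libraries left out, 0 to 1 members were called in each of SPCH, SRDX-FAMA and SRDX-SPCH against NLS (RBCS1B, as given above) and in SPCH against SRDX-SPCH (LHCB1.5, 0.40, adjusted p = 0.0487, without SPCH 2 h replicate 1).

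RBCS1B in SPCH against FAMA lay between 0.79 and 0.87 under 7 alternatives (adjusted p of 0.000116 to 0.0227) and between 0.72 and 0.91 with a library left out (0.0023 to 0.0176). In SRDX-SPCH against SRDX-FAMA it lay between 1.08 and 1.18 (1.04e-07 to 0.000911) and between 1.03 and 1.26 (3.29e-07 to 0.00246). With the replicate block RBCS1B had 0.87 and 1.13 in these comparisons, and the block changed no call. Libraries with the same replicate number deviated together (r over 0.1) in 30 of 83 pairs, so the numbers do not pair them, and those with the same letter in 49 of 66. For letter e against f, 47 to 49 members were called under 11 alternatives, with medians between 1.09 and 1.51.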
